A study of Oryza sativa with 6 samples.

Results

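The 10 genes described here encode dehydrins and other late embryogenesis abundant (LEA) proteins of rice, out of 91180 features in the deposited tables. They were taken by identifier: the 4 genes of the RAB16 group on chromosome 11 (RAB21, also called RAB16A, with RAB16B, RAB16C and RAB16D), the dehydrin genes RAB25 and OS02G0669100 (DEHYDRIN), the LEA-3 genes LEA3-1, LEA3-2 and OS03G0168100, and OS06G0324400, which the study's gene descriptions place in the LEA-25/D113 family. The list was chosen with the OsRUS1-OX against WT read counts of these same libraries in view, so the differences between the genotypes in these genes are given as a description, with no test. The poly(A) RNA of flag leaves, the uppermost leaves of the rice shoot, was sequenced from OsRUS1-OX, a line of cultivar ZH-11 that overexpresses OsRUS1 (ROOT UV-B SENSITIVE 1) as a GFP fusion, and from the untransformed WT of the same cultivar. Both were grown in the field and sampled at the heading stage at 11 h on a sunny summer day, when OsRUS1-OX leaves were rolled and WT leaves were expanded. Each genotype has 3 libraries from separate collections, each made from leaves of 3 pooled plants, and OsRUS1-OX is represented by 1 transgenic line chosen from several. Genotype and leaf state therefore cannot be told apart, and in whole leaves a change in the number of expressing cells cannot be told apart from a change in RNA per cell.

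LEA proteins are small, very hydrophilic and largely unfolded proteins that accumulate in maturing seeds and in vegetative tissue that loses water, where they are thought to protect membranes and other proteins. Dehydrins are a LEA family marked by a lysine-rich K-segment. Many LEA genes are switched on by abscisic acid (ABA) through basic leucine zipper (bZIP) factors that bind ABA-responsive elements in their promoters, and the rice RAB genes take their name from this response to ABA.

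The OsRUS1-OX libraries held 11918655 to 13532579 reads assigned to genes, against 8759812 to 11744177 in WT. Reads are given below as deposited and also as CPM, counts per 1000000 assigned reads of the library, adjusted by the trimmed mean of M-values (TMM), and 3 reads corresponded to 0.214 to 0.360 CPM. OsRUS1 (OS04G0290800) had 7313, 3515 and 7577 reads in OsRUS1-OX and 57, 120 and 102 reads in WT. Of 7 leaf mesophyll markers, all were read in every library, with summed levels of 40893 to 44619 CPM in OsRUS1-OX and 43655 to 53093 CPM in WT. The sums hide opposite changes: 1 marker rose, OS01G0600900 (LHCB, log2 fold change 1.03), and 2 fell, OS12G0274700 and OS12G0292400 (RBCS, -1.08 and -1.17). The other 4 did not pass edgeR's test, which called 11.8% of all tested features in each direction. Markers of developing seed summed to 12.1 to 14.4 CPM in OsRUS1-OX and 24.7 to 27.9 CPM in WT. Of the 8 seed markers, 2 had no read in any library, 3 could be tested and 1 of these, OS06G0133000, fell. That marker carried the gap: without it, a sum added after the values were seen, the seed markers came to 8.48 to 10.1 CPM in OsRUS1-OX and 9.84 to 11.4 CPM in WT, and the ranges overlapped. Anther markers summed to 0.143 to 0.950 CPM in OsRUS1-OX and 1.08 to 1.89 CPM in WT. Of the 3 anther markers, 1 could be tested, OS02G0120500, and it fell. This marker had 8, 1 and 1 reads in OsRUS1-OX and 8, 11 and 20 reads in WT. It passed edgeR's filter on low counts through the WT libraries alone (quasi-likelihood test, Benjamini-Hochberg adjusted p = 0.0481). The part of seed or anther tissue in the levels of the LEA genes was not tested.

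All 10 genes had more CPM in every OsRUS1-OX library than in any WT library. An order of this kind held for 21.2% of the 19694 features tested across the transcriptome. Of the 10 genes, 7 passed edgeR's filter on low counts and RAB16C, RAB16D and RAB25 did not. RAB21, RAB16B, OS06G0324400, LEA3-2 and OS03G0168100 passed it through the OsRUS1-OX libraries alone. Because the genes were chosen for this difference, their order says no more than how they were chosen. Over all tested features, edgeR's quasi-likelihood test called 11.8% higher and 11.8% lower in OsRUS1-OX. The number of features called in either direction, 4644 with all libraries, depended on which library was left out. It was 3905, 2524 and 2399 without OsRUS1-OX replicate 1, 2 and 3, and 3466, 5219 and 3751 without WT replicate 1, 2 and 3. Leaving out a library also changes the spread that the test uses, so these numbers do not measure each library's part in the calls. Together the 10 genes took 0.121%, 0.228% and 0.153% of the assigned reads in OsRUS1-OX, against 0.0174%, 0.0112% and 0.0175% in WT.

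**Figure D1:**
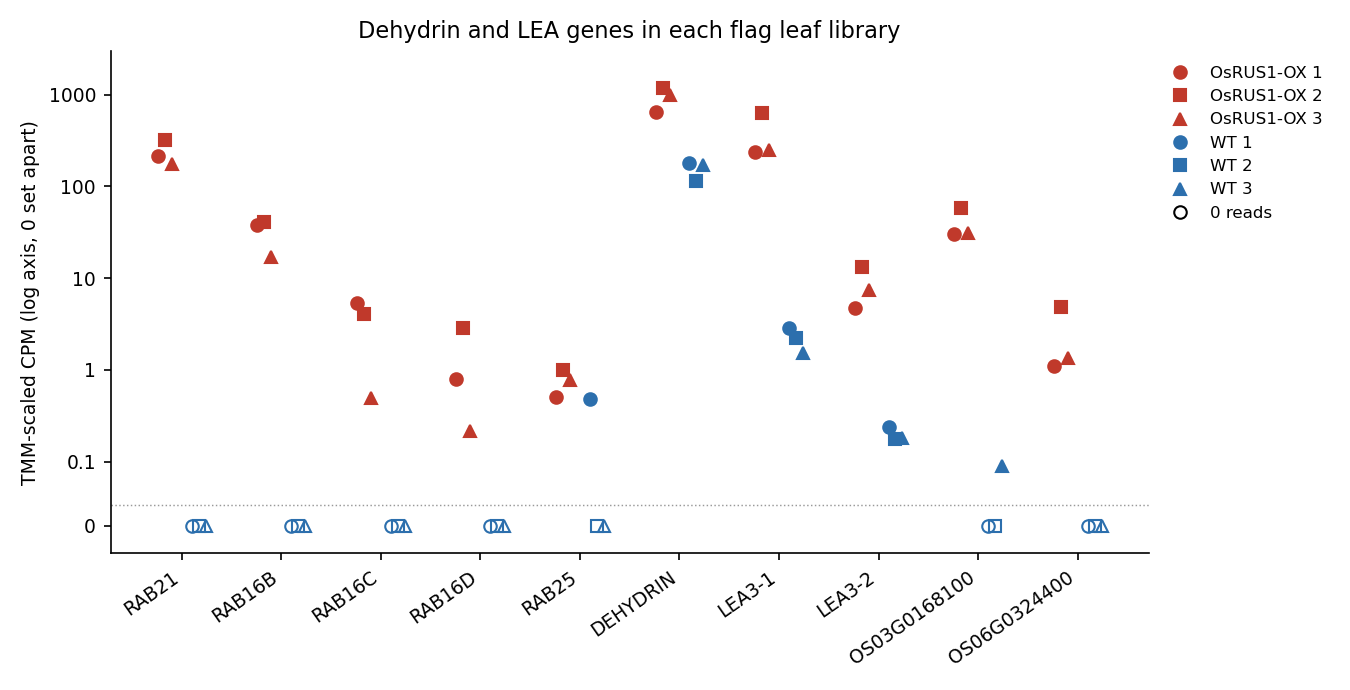
Level of each of the 10 genes in each library, as TMM-scaled CPM on a log axis with libraries of 0 reads set apart as open symbols below the dotted line; symbols mark the replicate and colours the genotype. OsRUS1-OX libraries lie above WT libraries for every gene, by the smallest margin for RAB25 (0.512 CPM in the lowest OsRUS1-OX library, 0.480 CPM in WT replicate 1).

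The RAB16 genes were read in every OsRUS1-OX library and had no read in any WT library. RAB21 (OS11G0454300), first described in rice as a gene switched on by water stress and ABA, had 2929, 3863 and 2448 reads in OsRUS1-OX. That is 236 ± 74.9 CPM (SD, n = 3), at least 788-fold higher than the level that 3 reads in each WT library would give. At 341 ± 105 FPKM (SD, n = 3), a level corrected for gene length as well as depth, it ranked 261 among the 31752 features with a read in any library. RAB21 was thus without reads in WT flag leaves and among the more abundant transcripts of OsRUS1-OX flag leaves.

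RAB16B (OS11G0454200), a dehydrin gene near RAB21 by identifier, had 524, 493 and 239 reads in OsRUS1-OX, or 32.1 ± 13.0 CPM (SD, n = 3), at least 107-fold above 3 reads per WT library. RAB16C (OS11G0454000) had 73, 49 and 7 reads in OsRUS1-OX, or 3.30 ± 2.51 CPM, at least 11.0-fold above the same floor. RAB16D (OS11G0453900) had 11, 35 and 3 reads in OsRUS1-OX, or 1.30 ± 1.41 CPM, at least 4.36-fold above it. The last 2 genes were thus detected in OsRUS1-OX at levels that differed widely between its libraries, and OsRUS1-OX replicate 3 held RAB16D at no more than the floor itself.

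Within each OsRUS1-OX library the 4 genes kept 1 order, RAB21 over RAB16B over RAB16C over RAB16D in FPKM. RAB21 made up 85.4%, 89.1% and 92.3% of their summed FPKM in replicates 1, 2 and 3, with a mean of 89.0 ± 3.46% (SD, n = 3). RAB16B made up 9.65 ± 2.57%, RAB16C 1.05 ± 0.832% and RAB16D 0.344 ± 0.296%. The gap between RAB21 and RAB16B, 6.88-fold to 12.6-fold in FPKM, exceeded the spread between the libraries, as did the gap between RAB16B and RAB16C. RAB16C and RAB16D lay within each other's spread: their mean FPKM was 4.24 ± 3.22 and 1.56 ± 1.67 (SD, n = 3). The 4 genes are close paralogs, and reads shared between them could be assigned to the wrong copy, so the levels of RAB16C and RAB16D beside a far more abundant RAB21 are uncertain.

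**Figure D2:**
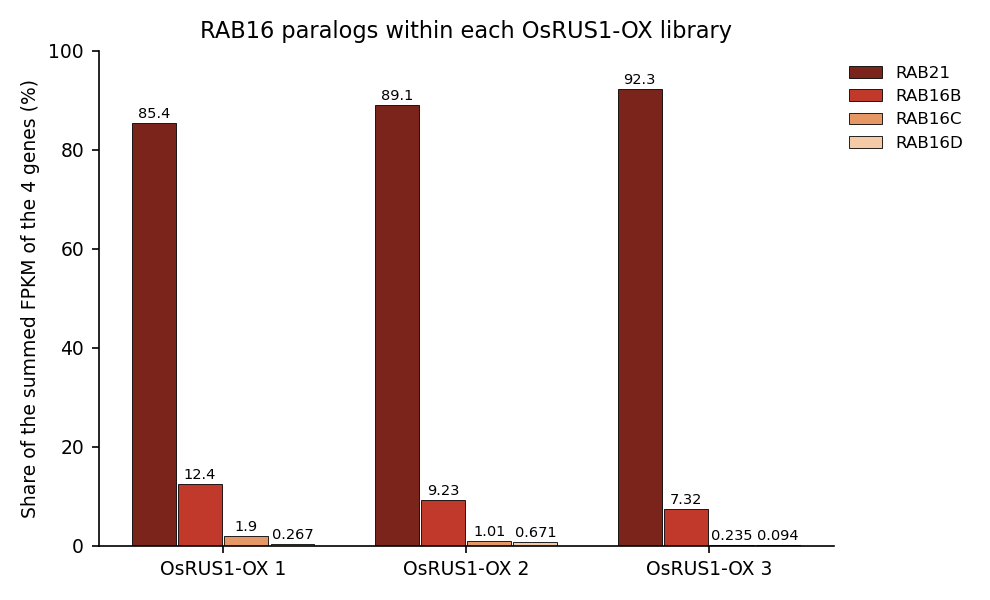
Share of each RAB16 gene in the summed FPKM of the 4 genes, as bars for the 3 OsRUS1-OX libraries; WT libraries held no reads of these genes and have no bars. RAB21 takes 85.4% to 92.3% and RAB16D under 1% in each library.

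The features around the RAB16 genes on chromosome 11 were examined next. Rice identifier numbers run along each chromosome, and of the 21 other features next to these genes by number (10 before, 10 after and 1 between), 12 had reads and 9 could be tested. Of these 9, 1 rose and 1 fell in edgeR's quasi-likelihood test and 7 did not pass, shares near the 11.8% called in each direction over all features. The one that rose was OS11G0451700, which the study's annotation places, with RAB21, RAB16B, RAB16C and DEHYDRIN, under the term response to water stimulus. It had 71, 291 and 161 reads in OsRUS1-OX and none in WT, at least 45.4-fold above 3 reads per WT library (Benjamini-Hochberg adjusted p = 0.00449). OS11G0451700 passed the filter on low counts through the OsRUS1-OX libraries alone. The one that fell was OS11G0455800, annotated with glycine hydroxymethyltransferase activity, at 108 ± 10.7 CPM in OsRUS1-OX and 256 ± 37.5 CPM in WT (SD, n = 3 each, edgeR adjusted p = 0.00139). The feature between RAB16B and RAB21, OS11G0454250, had no read in any library. The count of features that fell was 3 without WT replicate 2 and 2 without WT replicate 3.

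**Figure D3:**
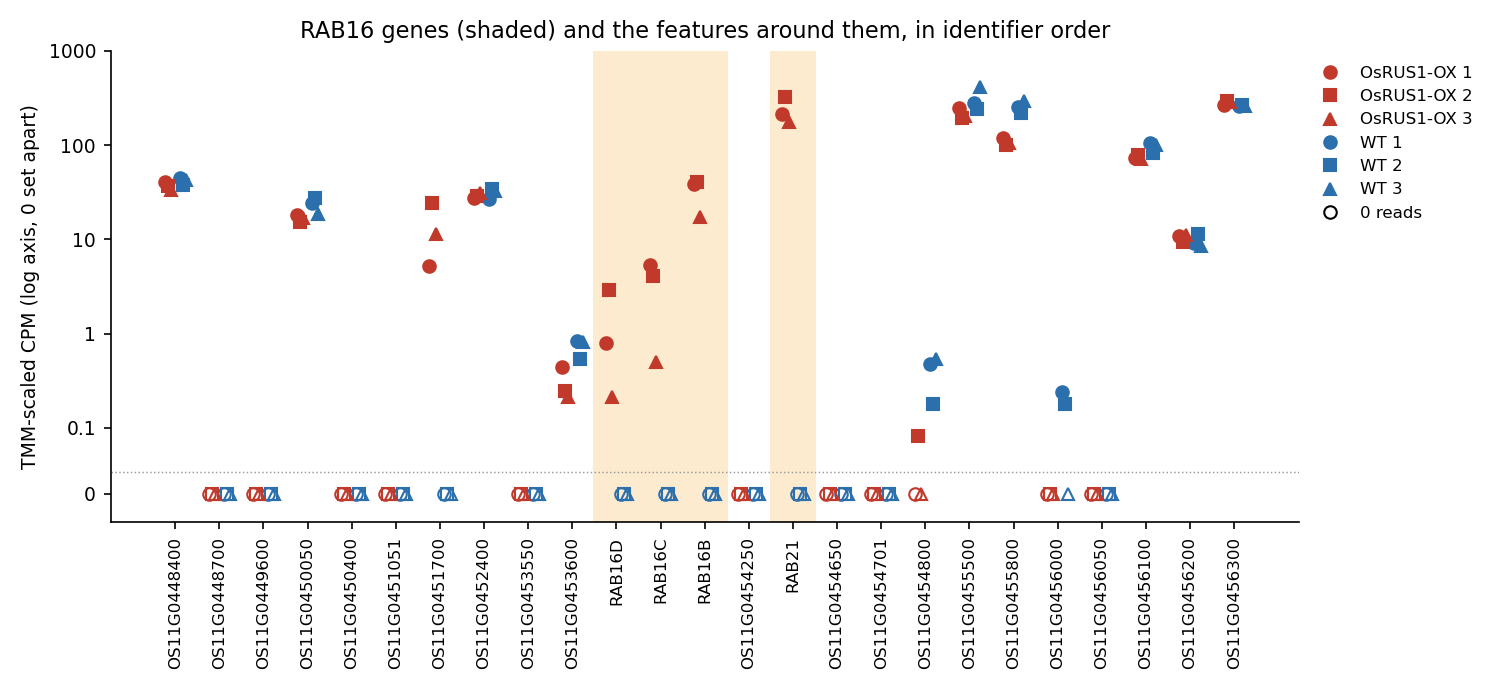
TMM-scaled CPM of the RAB16 genes (shaded) and of the 21 features around them in the order of their identifiers, per library, on a log axis with 0 reads set apart. OS11G0451700 is the 1 neighbour with reads in OsRUS1-OX and none in WT.

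The remaining 2 dehydrin genes lay at opposite ends of the range. DEHYDRIN (OS02G0669100), annotated as a dehydrin family protein, was the most abundant of the 10 genes in both genotypes. It had 8857, 14260 and 13895 reads in OsRUS1-OX and 1495, 1290 and 1872 reads in WT. In CPM this was 940 ± 270 in OsRUS1-OX and 154 ± 34.3 in WT (SD, n = 3 each), a log2 fold change of 2.63 ± 0.24 (SE). The gene already ranked 974 in WT by mean FPKM and ranked 109 in OsRUS1-OX.

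DEHYDRIN accounted for 45.8%, 44.9% and 59.6% of the summed FPKM of the 10 genes in OsRUS1-OX, against 97.6%, 97.6% and 98.8% in WT. In WT the next gene, LEA3-1, lay far below it at 1.91 ± 0.521 FPKM (SD, n = 3). DEHYDRIN reached 745 ± 211 FPKM in OsRUS1-OX, above RAB21 at 341 ± 105 FPKM and LEA3-1 at 337 ± 196 FPKM (SD, n = 3), and the last 2 did not differ beyond their spread.

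RAB25 (OS01G0702500), another rice dehydrin gene, had 7, 12 and 11 reads in OsRUS1-OX and 4, 0 and 0 reads in WT. Its ratio of CPM over all reads was 5.77, with a 95% interval of 2.03 to 22.6 that covers counting error only. The lowest OsRUS1-OX library exceeded WT replicate 1 by 0.0314 CPM, less than 1 read. At 1.03 ± 0.319 FPKM in OsRUS1-OX it had the lowest mean of the 10 genes, within the spread of RAB16D at 1.56 ± 1.67 FPKM (SD, n = 3). The difference of RAB25 between the genotypes turned on 1 WT library: without WT replicate 1 its fitted log2 fold change was 6.26 and without WT replicate 2 or 3 it was 1.82 and 1.80.

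The LEA-3 genes belong to the group of LEA proteins built of repeated helical motifs. LEA3-1 (OS05G0542500), whose overexpression is known to improve drought resistance in rice, had 3255, 7534 and 3511 reads in OsRUS1-OX and 24, 25 and 17 reads in WT. In CPM this was 371 ± 219 in OsRUS1-OX and 2.22 ± 0.675 in WT (SD, n = 3 each), a log2 fold change of 7.43 ± 0.43 (SE). Even the lowest OsRUS1-OX library was 82.6 times the highest WT library.

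LEA3-2 (OS03G0322900) had 64, 161 and 104 reads in OsRUS1-OX and 2 reads in each WT library. Its ratio of CPM was 42.2, with a 95% counting interval of 19.2 to 116. OS03G0168100, which the study's annotation compares with the carrot embryonic protein DC-8, had 418, 710 and 435 reads in OsRUS1-OX and a single read, in replicate 3, in WT. Its ratio was 1203, with a wide counting interval of 216 to 47546 because it rests on that 1 read. In FPKM the 3 genes of this group lay at 337 ± 196, 26.6 ± 10.4 and 7.69 ± 3.94 (LEA3-1, OS03G0168100 and LEA3-2, SD, n = 3) in OsRUS1-OX, each apart from the next beyond the spread.

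OS06G0324400 belongs to the LEA-25/D113 family, named after a cotton embryo protein. It had 15, 59 and 19 reads in OsRUS1-OX and none in WT, or 2.44 ± 2.11 CPM in OsRUS1-OX (SD, n = 3), at least 8.16-fold above 3 reads per WT library. It was among the lower genes of the set, and its highest OsRUS1-OX library was 4.45 times its lowest.

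Over the 10 genes the fitted log2 fold changes ran between 2.43 (RAB25) and 14.45 (RAB21, whose lower bound is 9.62), with a median of 7.64. A fitted value is no bound for the 5 genes without a WT read, and with these at their lower bounds the median was 4.42. The median over all tested features was -0.01.

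The OsRUS1-OX libraries did not carry the genes equally. OsRUS1-OX replicate 2 was the highest for 9 of the 10 genes, and replicate 1 for RAB16C. Among the 2328 features called higher, OsRUS1-OX replicate 2 was the highest library for 63.2%, against 36.1% of all features tested, so the genes shared this order with most of the features that rose. OsRUS1-OX replicate 2 was also the library with the fewest OsRUS1 reads, 3515, and the part of the transgene level in this order was not tested.

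The 4 RAB16 genes were lowest in OsRUS1-OX replicate 3. The other 6 genes were lowest in OsRUS1-OX replicate 1, for several of them by a small margin over replicate 3: OS03G0168100 had 30.5 and 31.1 CPM in replicates 1 and 3, LEA3-1 had 238 and 251 CPM, and OS06G0324400 had 15 and 19 reads. DEHYDRIN, RAB25 and RAB21 varied least, with coefficients of variation of 28.7%, 31.6% and 31.7% over the 3 libraries, and RAB16D, OS06G0324400 and RAB16C varied most, with 108%, 86.5% and 76.0%. RAB16C had 5.33 and 4.05 CPM in replicates 1 and 2 and 0.500 CPM in replicate 3. This order was noticed in these values, was not tested and rests on 3 libraries.

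**Figure D4:**
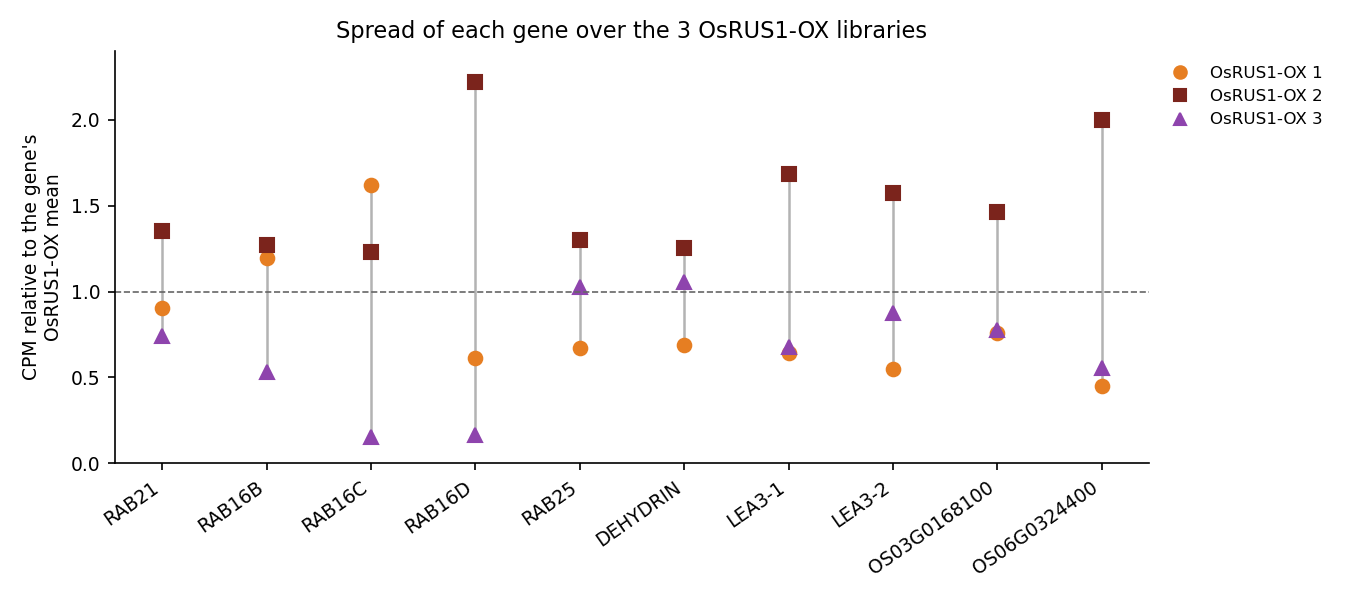
CPM of each gene in each OsRUS1-OX library divided by the gene's mean over the 3 OsRUS1-OX libraries (dashed line at 1); grey lines join the lowest and highest library. Replicate 2 is highest for 9 genes and the RAB16 genes are lowest in replicate 3, while replicates 1 and 3 lie close together for LEA3-1, OS03G0168100 and OS06G0324400.

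Other LEA genes were also higher in OsRUS1-OX. Of 10 further genes, 8 could be tested and all 8 rose, beside 11.8% of all tested features, with a median log2 fold change of 2.38 (also 2.38 with the 1 gene without WT reads, OS11G0451700, at its lower bound). These 8 were taken from the study's lists of changed genes in these same libraries. Their direction, their count and their adjusted p-values are therefore not independent evidence, and the 11.8% is no fair comparison for them. The 2 genes added from general knowledge, OS05G0349800 and OS01G0159600, had at most 9 reads in any library and were not tested. The largest increase with reads in both genotypes was that of OS01G0705200, a LEA-3 gene, with 282, 1061 and 567 reads in OsRUS1-OX and 5, 1 and 2 reads in WT (log2 fold change 7.50 ± 0.79 SE, edgeR adjusted p = 0.000976). OS04G0589800, of the same LEA-25/D113 family as OS06G0324400, had 78, 285 and 100 reads in OsRUS1-OX and 1, 1 and 5 reads in WT (edgeR adjusted p = 0.00300). Like OS11G0451700 and OS01G0705200, OS04G0589800 passed the filter on low counts through the OsRUS1-OX libraries alone.

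Other genes of this second group, taken from the same lists, were abundant in both genotypes, and their adjusted p-values are given as a description. OS03G0655400, annotated to the response to water, rose to 1062 ± 224 CPM in OsRUS1-OX, against 355 ± 86.2 CPM in WT (SD, n = 3 each, edgeR adjusted p = 0.00289). OS01G0256500, a LEA-5 gene, rose to 720 ± 156 CPM in OsRUS1-OX, against 132 ± 60.6 CPM in WT (edgeR adjusted p = 0.00318). OS03G0843300, a LEA-14 gene of the atypical, less hydrophilic kind, had 73.8 ± 5.79 CPM in OsRUS1-OX and 45.4 ± 11.6 CPM in WT (log2 fold change 0.70 ± 0.19 SE, edgeR adjusted p = 0.0307). Without OsRUS1-OX replicate 2, 5 of the 8 genes were called, and OS03G0843300, OS06G0110200 and OS12G0119800 were not.

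The ABA genes, listed from general knowledge of the pathway but with earlier results of these data known, gave a mixed picture. Of 20 genes, 17 could be tested, and 12 rose, 2 fell and 3 did not pass edgeR's quasi-likelihood test, where 11.8% of all tested features were called in each direction. The type 2C protein phosphatases (PP2C), which hold ABA signalling in check and are themselves induced by ABA, rose in 6 of 7 cases. The largest change among them was that of OS05G0572700, at 7.75 ± 2.27 CPM in OsRUS1-OX and 0.869 ± 0.513 CPM in WT (SD, n = 3 each, log2 fold change 3.20 ± 0.42 SE, adjusted p = 0.00209). OS01G0656200, the 1 PP2C gene that did not pass, had 3.55 ± 1.10 CPM in OsRUS1-OX and 1.24 ± 0.861 CPM in WT (adjusted p = 0.0781). Both of these genes and OS03G0268600, another PP2C gene that rose, passed the filter on low counts through the OsRUS1-OX libraries alone. In WT, OS05G0572700 had 12, 5 and 8 reads and OS03G0268600 had 7, 26 and 10.

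Of the 6 listed bZIP genes, 5 could be tested and 3 rose. OS02G0766700, described as similar to the ABA-responsive element binding factor ABF4 of Arabidopsis, had 3760, 4828 and 4607 reads in OsRUS1-OX and 496, 727 and 487 reads in WT (log2 fold change 2.57 ± 0.20 SE, edgeR adjusted p = 0.000341). OS01G0859300, described as similar to ABI5, was too low to test, with 3, 13 and 12 reads in OsRUS1-OX and none in WT. The factor family that acts on LEA promoters was thus higher for some of its genes and did not pass the test for others.

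The genes of ABA synthesis and breakdown went both ways. The 9-cis-epoxycarotenoid dioxygenases (NCED) carry out the committed step of ABA synthesis. OS03G0645900 (NCED3) rose to 17.4 ± 4.06 CPM in OsRUS1-OX, against 3.36 ± 2.72 CPM in WT (SD, n = 3 each, edgeR adjusted p = 0.0101), and OS07G0154100 had 12, 29 and 20 reads in OsRUS1-OX and 0, 1 and 0 reads in WT (adjusted p = 0.00503). OS12G0617400 fell by 2.82 on the log2 scale, with 6, 6 and 7 reads in OsRUS1-OX and 21, 49 and 37 reads in WT (adjusted p = 0.00148). OS07G0154100 passed the filter on low counts through the OsRUS1-OX libraries alone, and OS12G0617400 through the WT libraries alone.

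Of the genes listed under ABA breakdown, OS09G0457100 fell to 5.76 ± 1.55 CPM in OsRUS1-OX, against 25.2 ± 1.93 CPM in WT (SD, n = 3 each, edgeR adjusted p = 0.000798). OS08G0472800 rose by 0.62 on the log2 scale (adjusted p = 0.0317), a call that was lost when any 1 library other than WT replicate 2 was left out.

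**Figure D5:**
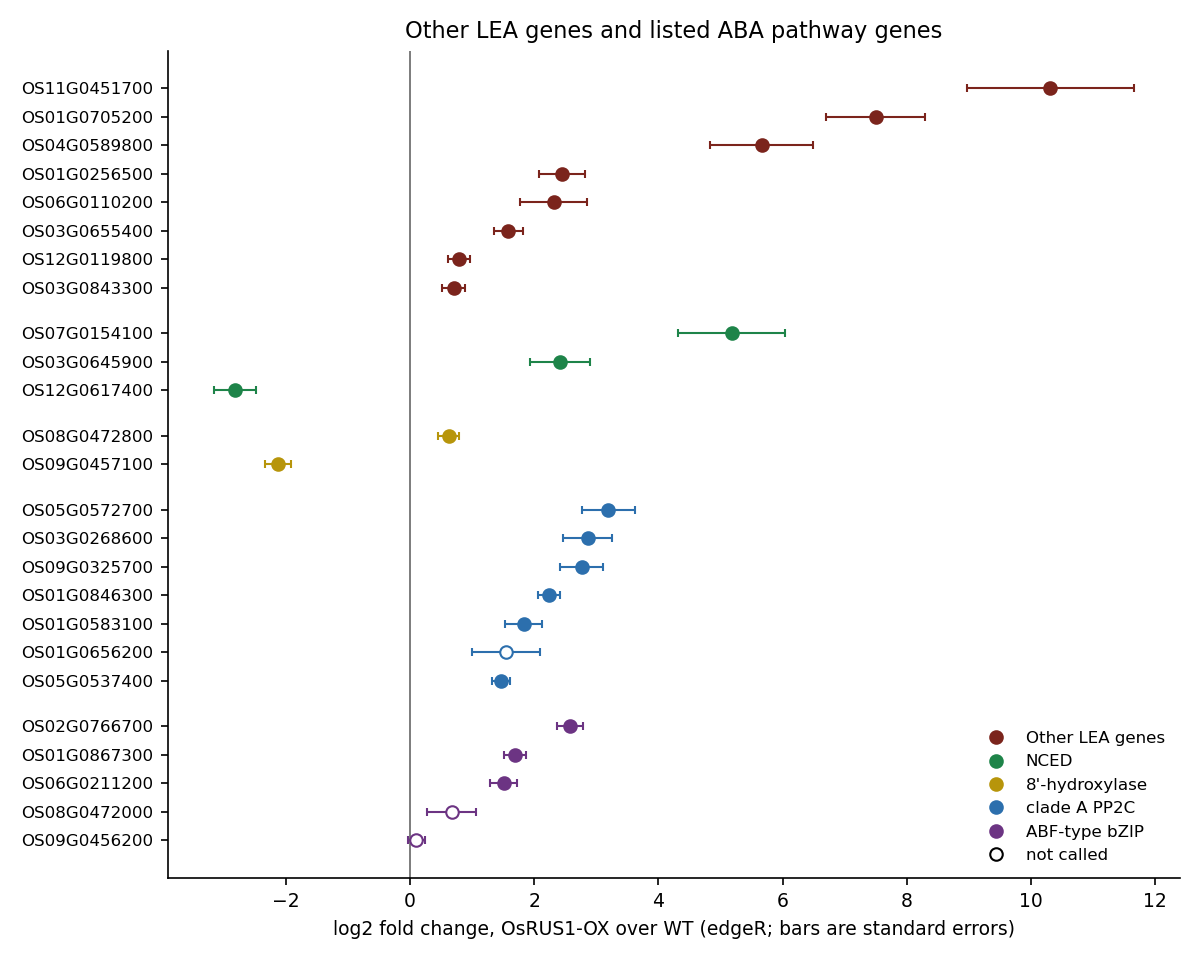
Log2 fold change, OsRUS1-OX over WT, with its standard error for the tested genes outside the set of 10: other LEA genes at the top, then the listed ABA genes by role; open symbols did not pass edgeR's test at an adjusted p of 0.05. The 8 other LEA genes lie at 0.70 or above. The topmost, OS11G0451700, has no WT read, so its plotted 10.31 is a fitted value and its lower bound is 5.50. The listed ABA genes lie between -2.82 and 5.18.

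The features whose levels followed the 10 genes most closely over the 6 libraries were sought by Pearson correlation of log2 CPM with the mean standardised profile of the set. Such a correlation is dominated by the gap between the genotypes, and 892 of 18832 features had r above 0.95. The closest was OS04G0511200 (r = 0.999), annotated as a caleosin, a calcium-binding protein of lipid droplets, with 377, 1126 and 295 reads in OsRUS1-OX and 8, 4 and 6 reads in WT. OS07G0666900 (OsNHX1, r = 0.998), a vacuolar sodium and proton antiporter, had 545, 757 and 520 reads in OsRUS1-OX and 67, 86 and 77 reads in WT. OS02G0551100 (r = 0.998), annotated as a protein kinase similar to SnRK2 kinases of Arabidopsis, had 691, 731 and 724 reads in OsRUS1-OX and 237, 287 and 287 reads in WT. OS03G0826900 and OS02G0232100, which carry no description in the sources used here, followed with r = 0.998 and 0.997. Among the 10 genes, LEA3-1 was closest to the mean of the others (r = 0.994) and RAB25 farthest from it (r = 0.810).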

How the data were processed

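The authors mapped paired-end reads with TopHat2 2.0.12 to the rice genome of Ensembl Plants and counted them per gene with HTSeq 0.6.1 (versions as in the submitters' processing notes). They deposited whole-number read counts and FPKM values for 91180 features in 6 libraries. How HTSeq treated strand and overlapping genes is not given in the sources used here. The number of per-sample columns not used was 0. Counts were tested with edgeR 4.0.16 (R 4.3.3): TMM scaling, filterByExpr by genotype, quasi-likelihood F test, Benjamini-Hochberg adjustment over 19694 features, called under 0.05. The code of the test was run on counts drawn with known changes from edgeR's own fitted spread. That run checks the code and not how well the model holds for these libraries. Member folds came from the same fit without the filter. Each SE is the size of the log2 fold change divided by the square root of its F statistic. Counting intervals are exact at 95%. P-values set the genotype difference against the spread among the libraries of each genotype. They do not cover the spread between transgenic lines. Replicates of a genotype differed by more than sampling noise (chi-square per degree of freedom 8.55 to 27.9). DESeq2 1.42.0, limma 3.58.1 on log2 FPKM, other scalings and filters, the replicate block and left-out libraries were alternatives. Named genes were the 10 members, OsRUS1, up to 6 called genes per list with the largest changes, any further list gene that a sentence on its group needed, and the 5 most similar features with at least 10 reads in every OsRUS1-OX library. The members and lists were chosen with earlier results of these data known. Most list identifiers are not paired with names in the files; names come from the study's annotation. Sequences were not analysed here.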

Additional observations from a re-analysis of the deposited data

How the results depend on the processing

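Every gene of the set stayed higher in OsRUS1-OX under every alternative that gave it a value. This is no support for the difference, because the genes were chosen for it. The 5 genes without a WT read could not have changed direction. The members' median log2 fold change of 7.64 was 2.72 with limma on log2(FPKM + 1), 5.11 with limma on log2(FPKM + 0.1) and 5.02 over the 2 genes with at least 10 counts in every library, since genes at 0 in WT depend on the constant added and on the filter; leaving out single libraries gave 6.85 to 7.86. The calls over all features, 4644 in all, 2328 higher and 2316 lower, ranged over 2399 to 5219, 1354 to 2602 and 1045 to 2617 with single libraries left out, and the number lower was 1542 with limma on log2(FPKM + 0.1). With at least 10 counts in every library, 5 other LEA genes were called, all 5 that could be tested, 1 ABA gene was called lower and 0 neighbours of the RAB16 genes were called higher, because the genes near 0 in a genotype were not tested. Leaving out single libraries gave 5 to 8 other LEA genes called higher and 1 to 3 neighbours called lower.

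Libraries of the 2 genotypes share replicate numbers. Deviations of same-numbered libraries from their genotype means correlated with r = 0.125, -0.0914 and 0.112, so the numbers were not taken as pairs. With the replicate block 4013 features were called, the 8 other LEA genes kept their calls, and 11 ABA genes were called higher, with OS08G0472800 no longer called (log2 fold change 0.63). DESeq2 called 14 ABA genes higher, OS01G0656200 among them.

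Depth limits RAB16C, RAB16D, RAB25 and OS06G0324400, which hold at most 73 reads in any library, and a WT level under 3 reads per library could not be told apart from 0.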
